A study of Mus musculus with 2 samples.

Results

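The 10 genes described here encode myosin chains of striated muscle, out of 21938 protein-coding genes annotated in GENCODE M21 on GRCm38/mm10. They were chosen by name: *Myh6*, *Myl4* and *Myl7* as atrial chains, *Myh7*, *Myl2* and *Myl3* as ventricular chains, *Myh7b* as a heavy chain on its own, and *Myh1*, *Myh3* and *Mylpf* as skeletal muscle chains. *Myh6* and *Myh7* are neighbours on the minus strand of chromosome 14, *Myh1* and *Myh3* belong to the skeletal heavy chain cluster of chromosome 11, and the other genes lie apart on chromosomes 2, 5, 7, 9 and 11. The classes follow general knowledge of where these chains are used. The atrial and ventricular classes were set from knowledge of adult chambers. For the heavy chains they apply to the embryonic mouse heart, since the adult mouse ventricle uses mainly *Myh6*. Open chromatin was mapped by ATAC-seq, in which a transposase inserts sequencing adapters into accessible DNA, in nuclei of whole hearts from wildtype FVB mouse embryos at E11.5. There were 2 replicates of a single group, each made from a pair of hearts, so no treatment or genotype was compared and no test between groups was possible. A region called as a peak in both replicates is termed a shared region, and 117 of 98924 shared regions lay in the bodies of the 10 genes or within 50 kb on either side.

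Myosin II is the motor of the sarcomere. A heavy chain carries the ATPase head, and an essential and a regulatory light chain bind its neck. In the mouse heart *Myh6* encodes the fast alpha heavy chain and *Myh7* the slower beta heavy chain, which leads in the embryonic ventricle. The light chains are divided by chamber as the heart matures, with *Myl4* and *Myl7* retained in atria and *Myl2* and *Myl3* in ventricles. *Myh1* encodes an adult fast skeletal heavy chain, *Myh3* the embryonic skeletal heavy chain and *Mylpf* the regulatory light chain of fast skeletal fibres.

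The replicate lists held 118027 and 114783 peaks. Signal is given as fold enrichment at the summit, the highest point of a peak, over the background of its own library. The values were whole reads at the summit plus 1, divided by the background plus 1, with a recovered background of 2.682 reads in replicate 1 and 2.978 reads in replicate 2. The lowest listed summit had 9 reads in each replicate, so a place without a peak may still hold reads below this level. Over 85436 regions with a single peak in each list, replicate 1 was 1.08 times replicate 2 at the median and 95% of ratios lay within 1.59-fold of that median. At their starts, 6 of 6 cardiomyocyte, 4 of 4 endothelial, 4 of 4 epicardial and 4 of 4 erythroid marker genes carried a shared region, against 2 of 5 skeletal muscle, 1 of 4 hepatocyte and 2 of 4 neural markers, beside 67.6% of all protein-coding genes. The lists are short, and the hearts hold several cell types whose signal was pooled. In such whole tissue, fewer open cells and less signal per cell cannot be told apart.

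A shared region lay within 1 kb of an annotated start in 8 of the 10 genes. The same held for 67.6% of all protein-coding genes, so the count alone does not set the myosin genes apart. The 7 genes other than the skeletal ones, the atrial and ventricular genes together with *Myh7b*, are termed cardiac here. All 7 cardiac genes had such a region and 1 of the 3 skeletal genes did. Among the skeletal genes *Myh1* and *Myh3* had none, and the region of *Mylpf* also covered the start of its neighbour *Tbc1d10b*, which encodes a Rab GTPase-activating protein. When regions reaching the start of another protein-coding gene were left out, all 7 cardiac genes still had a region at a start of their own and none of the 3 skeletal genes did, beside 56.9% of all genes. The 3 skeletal genes are too few for a test, and the cardiac genes share a tissue of use by choice.

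Starts poor in CpG, with an observed over expected CpG ratio under 0.48 in 1 kb, were counted apart. Such starts lack the CpG islands found at most housekeeping promoters. Of the 10 genes, 7 had CpG-poor starts alone, and 5 of these had a region at a start, beside 25.8% of all genes of this kind. The 10 genes have 53 distinct annotated starts, of which 32 had a shared region within 1 kb, beside 58.0% of all starts. Cardiac genes had a region at 28 of 40 CpG-poor starts and skeletal genes at 0 of 9, beside 26.3% of all CpG-poor starts. Starts of a gene lie close together and often share a region, so they are not independent. Of the 12 cardiac starts without a region, 8 belonged to transcripts not annotated as protein coding, and they lay 1056 to 3168 bp from the nearest shared region.

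**Figure D1:**
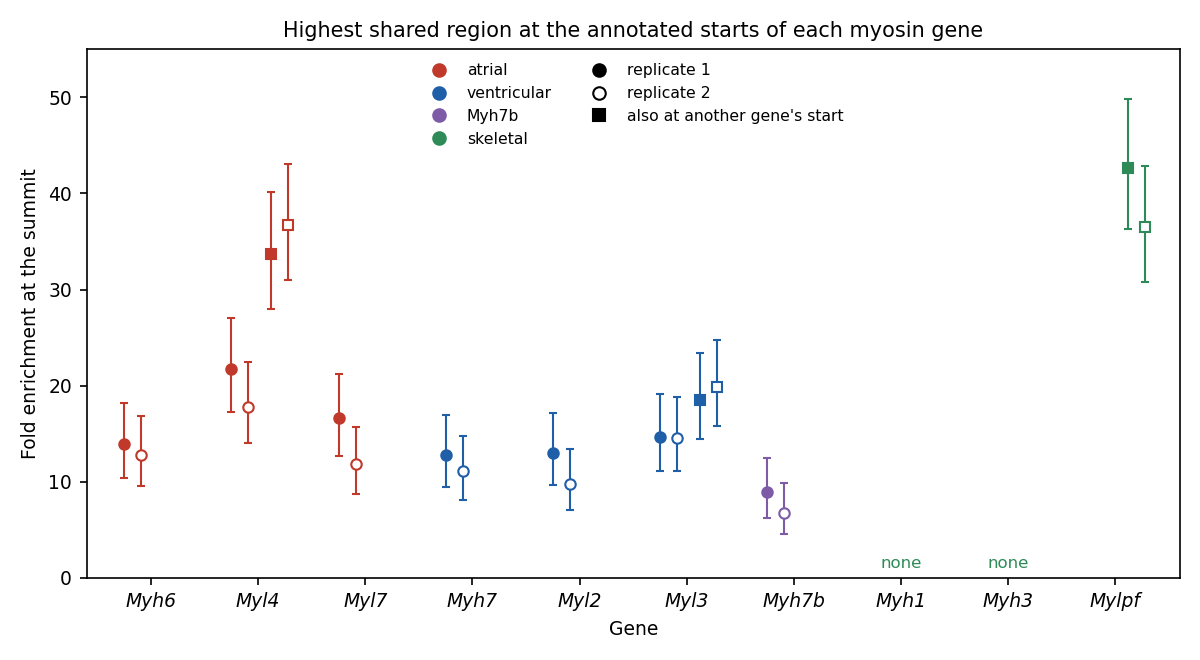
Fold enrichment at the summit (vertical axis) of the highest shared region at the annotated starts of each gene (horizontal axis), with filled symbols for replicate 1, open symbols for replicate 2 and bars for exact 95% Poisson intervals of the summit reads. Circles mark regions at starts of that gene alone and squares regions that also reach the start of another gene; the 7 cardiac genes lie between 6.79 and 21.7 by their circles, and Myh1 and Myh3 have none.

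The starts on which this contrast rests are shown by the 150 bases before them, on the strand of the gene, read from the GRCm38 reference, which is not the FVB strain of the embryos. For the 7 cardiac genes the stretch ends at the most upstream start covered by the highest region of the gene's own. For the skeletal genes it ends at the start of transcript 201, where no shared region lay within 1 kb, and that of *Myh1* is not printed because it reaches an annotated UTR. Capitals mark matches, on either strand, to letters bound by heart and muscle transcription factors: AGATAA for GATA factors, CTA and TAG with any 4 bases between them for MEF2, the CArG box for SRF, CACTTNA for NKX2-5, AGGTGT for TBX5, CATTCC for TEAD and the E-box CAGCTG for myogenic factors.
Myh6, chr14:54966928-54967077, minus strand: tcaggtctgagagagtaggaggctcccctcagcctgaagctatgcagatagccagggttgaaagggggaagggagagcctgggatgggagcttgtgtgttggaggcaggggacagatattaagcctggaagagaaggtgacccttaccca
Myl4-203, chr11:104576835-104576984, plus strand: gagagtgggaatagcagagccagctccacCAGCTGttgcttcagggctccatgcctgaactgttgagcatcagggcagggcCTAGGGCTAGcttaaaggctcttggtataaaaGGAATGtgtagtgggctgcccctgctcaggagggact
Myl7, chr11:5898783-5898932, minus strand: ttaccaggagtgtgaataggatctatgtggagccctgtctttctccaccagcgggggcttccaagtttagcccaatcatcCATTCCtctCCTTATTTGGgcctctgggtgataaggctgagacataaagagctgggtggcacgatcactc
Myh7, chr14:54994627-54994776, minus strand: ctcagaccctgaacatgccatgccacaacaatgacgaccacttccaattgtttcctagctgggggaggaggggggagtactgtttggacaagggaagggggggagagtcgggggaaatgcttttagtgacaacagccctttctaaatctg
Myl2, chr5:122100801-122100950, plus strand: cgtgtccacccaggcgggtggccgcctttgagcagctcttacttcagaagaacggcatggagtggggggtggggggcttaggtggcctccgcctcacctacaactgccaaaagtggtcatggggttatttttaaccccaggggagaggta
Myl3-201, chr9:110763496-110763645, plus strand: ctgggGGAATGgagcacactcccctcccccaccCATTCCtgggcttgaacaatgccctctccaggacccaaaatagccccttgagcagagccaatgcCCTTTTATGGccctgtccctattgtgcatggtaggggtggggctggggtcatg
Myh7b, chr2:155611062-155611211, plus strand: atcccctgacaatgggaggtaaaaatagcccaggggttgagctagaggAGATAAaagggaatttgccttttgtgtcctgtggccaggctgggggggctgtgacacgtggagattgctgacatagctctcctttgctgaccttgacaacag
Myh3, chr11:67078150-67078299, plus strand: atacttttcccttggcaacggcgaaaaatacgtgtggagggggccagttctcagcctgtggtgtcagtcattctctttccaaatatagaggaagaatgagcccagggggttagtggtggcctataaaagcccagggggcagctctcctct
Mylpf-201, chr7:127211458-127211607, plus strand: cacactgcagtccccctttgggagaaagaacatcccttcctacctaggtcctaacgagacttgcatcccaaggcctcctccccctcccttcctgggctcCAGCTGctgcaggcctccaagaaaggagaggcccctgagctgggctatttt

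A CArG box was found before *Myl7* and before *Myl3-201*, in 2 of the 7 cardiac stretches, beside 0.753% of the 150-base stretches before all annotated protein-coding starts. TEAD letters were found in 3 of the 7, before *Myl4-203*, *Myl7* and *Myl3-201*, beside 6.47% of all starts. The stretch before *Myl4-203* also held MEF2 letters (1.7% of all starts) and an E-box (8.44%), and that before *Myh7b* held GATA letters (5.02%). The central bases of this MEF2 match are G and C, whereas MEF2 is known to bind a centre of A and T. With such a centre required, a search added after seeing the data, none of the 7 stretches held a match, beside 0.253% of all starts. That search kept CTA and TAG at the ends, so MEF2 sites with other end letters were not searched. No searched letters were found before *Myh6*, *Myh7* and *Myl2*, and neither NKX2-5 letters (5.36% of all starts) nor TBX5 letters (7.01%) in any of the 7. Of the 3 skeletal stretches, that before *Myh1-201* held TEAD letters, that before *Mylpf-201* held an E-box and that before *Myh3* held none of the 7 motifs. These are matches of letters and not binding sites. The shares of all starts cover starts of every CpG content, and none was computed over CpG-poor starts alone.

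Among the heavy chains of the heart, *Myh6* had a region of 1309 bp over its start (chr14:54966317-54967625), with a fold enrichment of 13.9 in replicate 1 (95% interval 10.4 to 18.2, 50 reads) and 12.8 in replicate 2 (9.58 to 16.8, 50 reads). Both summits lay within 102 bp of the outermost start, and the region covered 4 of the 7 annotated starts. A second region followed directly upstream and reached the start of *Mhrt*, a long noncoding RNA gene of the same locus. *Mhrt* was named after its values were seen. In replicate 1 both regions belonged to a single peak of 3640 bp, so its 13.9 applies to both, while replicate 2 called the second region separately at 6.54.

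*Myh7* had a region of 715 bp over its start (chr14:54994367-54995081), at 12.8 in replicate 1 (9.42 to 16.9) and 11.1 in replicate 2 (8.07 to 14.8). Its summits lay 105 and 83 bp upstream of the outermost start. The starts of the alpha and the beta chain thus had values that did not differ beyond their counting intervals in either replicate, in hearts where both chambers were pooled. *Myh7b*, a slow tonic heavy chain, had the lowest region of its own, 287 bp over its outermost start (chr2:155611002-155611288), at 8.96 in replicate 1 (6.22 to 12.5) and 6.79 in replicate 2 (4.52 to 9.83). The internal start of *Myh7b-202* had a region at 6.25 and 8.55.

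Among the regulatory light chains, *Myl7* has a single annotated start, with a region of 1286 bp (chr11:5897819-5899104) at 16.6 in replicate 1 (12.7 to 21.2) and 11.8 in replicate 2 (8.72 to 15.7). Its summits lay 73 and 70 bp upstream. In replicate 1 this belonged to a peak of 2480 bp that covered the whole gene body and 3 shared regions. *Myl2* had a region of 687 bp (chr5:122100617-122101303) at 13 in replicate 1 (9.65 to 17.2) and 9.80 in replicate 2 (7.01 to 13.4), with summits 61 and 47 bp upstream of the outermost start. This region lay within 1 kb of 9 of the 12 annotated starts of *Myl2*.

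The essential light chains had their own regions at internal starts. The outermost start of *Myl4* shared a region with *Cdc27*, a subunit of the anaphase-promoting complex, at 33.7 in replicate 1 and 36.7 in replicate 2. The highest region that reached no other gene's start lay at the start of *Myl4-203*, 26.3 kb inside (chr11:104576723-104577685), at 21.7 in replicate 1 (17.3 to 27.0) and 17.8 in replicate 2 (14.0 to 22.5). This was the highest value of the 7 cardiac genes at a start of their own. For *Myl3* the outermost start shared a region with *Pth1r*, the parathyroid hormone receptor, at 18.5 and 19.9. The start of *Myl3-201*, 21.8 kb inside, had a region of its own (chr9:110763248-110764260) at 14.7 in replicate 1 (11.1 to 19.1) and 14.6 in replicate 2 (11.1 to 18.8), and a further start region of *Myl3* stood at 10.9 and 9.05.

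Ordered by the mean of both replicates, the own start regions ran *Myl4*, *Myl3*, *Myl7*, *Myh6*, *Myh7*, *Myl2* and *Myh7b*. Of the 6 neighbouring pairs in this order none had intervals apart in both replicates, and 3 changed places between the replicates. Of all 21 pairs, only *Myl4* with *Myl2* and *Myl4* with *Myh7b* had intervals apart in both. The means of the atrial genes, 13.3 for *Myh6*, 19.8 for *Myl4* and 14.2 for *Myl7*, overlapped those of the ventricular genes, 11.9 for *Myh7*, 11.4 for *Myl2* and 14.6 for *Myl3*. Among shared regions at protein-coding starts the 7 were of low to middle height: 57.9% of all such regions were lower than that of *Myl4*, 43.6% were lower than that of *Myh6* and 27.0% were lower than that of *Myh7b*. The median over all genes with a region at a start was 24.5 for the highest such region, and 9.72 over CpG-poor genes. For regions that reach no other gene's start, as ranked here, the medians were 22.2 and 9.33. Counting intervals cover the reads at the summit only.

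At the skeletal genes the picture was different. The 4 annotated starts of *Myh1* lay 94956 to 95308 bp from the nearest shared region, and the start of *Myh3* lay 1951 bp from one. For *Mylpf* the upstream starts of *Mylpf-205* and *Mylpf-206* lay in the region of *Tbc1d10b* (chr7:127207244-127209696), at 42.6 in replicate 1 (36.3 to 49.8) and 36.5 in replicate 2 (30.8 to 42.9), while the start of *Mylpf-201* lay 1912 bp from the nearest region. Of 32-base stretches in the start windows, 99.5% for *Myh1*, all for *Myh3* and 97.6% for *Mylpf* occur once in the genome, beside 90.2% for *Myh6*. Whether read mapping bears on the missing regions was not tested. Of the skeletal muscle markers, the transcription factor genes *Myod1* (4.89 and 5.53) and *Myf6* (11.4 and 10.3) had a shared region at a start and *Myog*, *Myf5* and *Pax7* had none. How much of the signal came from skeletal muscle precursors was not tested.

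Around the genes, 9 of the 10 had at least 1 shared region in the body or within 50 kb, beside 87.9% of all protein-coding genes. *Myh6* had 23, *Myh7* had 20, *Myl4* had 18, *Myl2* had 17, *Mylpf* had 15, *Myl7* had 14, *Myl3* had 12, *Myh7b* had 11, *Myh3* had 7 and *Myh1* had 0. The median was 18 for the atrial genes, 17 for the ventricular genes, 7 for the skeletal genes and 7 for all protein-coding genes. The atrial and ventricular medians are not separate measurements, since *Myh6* and *Myh7* are neighbours and 20 regions lie in both windows. The 2 counts also depended on the library: without replicate 2 the window of *Myh6* held 35 peaks and that of *Myh7* held 32, and without replicate 1 they held 24 and 21.

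Set against window length, *Myh6* had 18.4 regions per 100 kb, a density above that of 97.8% of protein-coding genes. *Myh7* stood at 16.1 (above 95.9%), *Myl2* at 15.1 (94.6%), *Mylpf* at 14.2 (93.3%), *Myl7* at 13.7 (92.3%) and *Myl4* at 12.4 (89.2%). *Myl3* (9.38), *Myh7b* (8.94) and *Myh3* (5.65) lay nearer to the median over all genes of 5.41. The density of *Mylpf* does not part it from the cardiac genes. Of its 15 regions 9 were at protein-coding starts, beside 38 of the 95 regions in the windows of the cardiac genes and 10 of 23 for *Myh6*. Over all shared regions, counted by distinct replicate 1 summit, 19959 of 95480 were at such starts. The 9 near *Mylpf* included those of *Dctpp1*, *Zfp771*, *Zfp553*, *Sept1* and *Cd2bp2*.

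**Figure D2:**
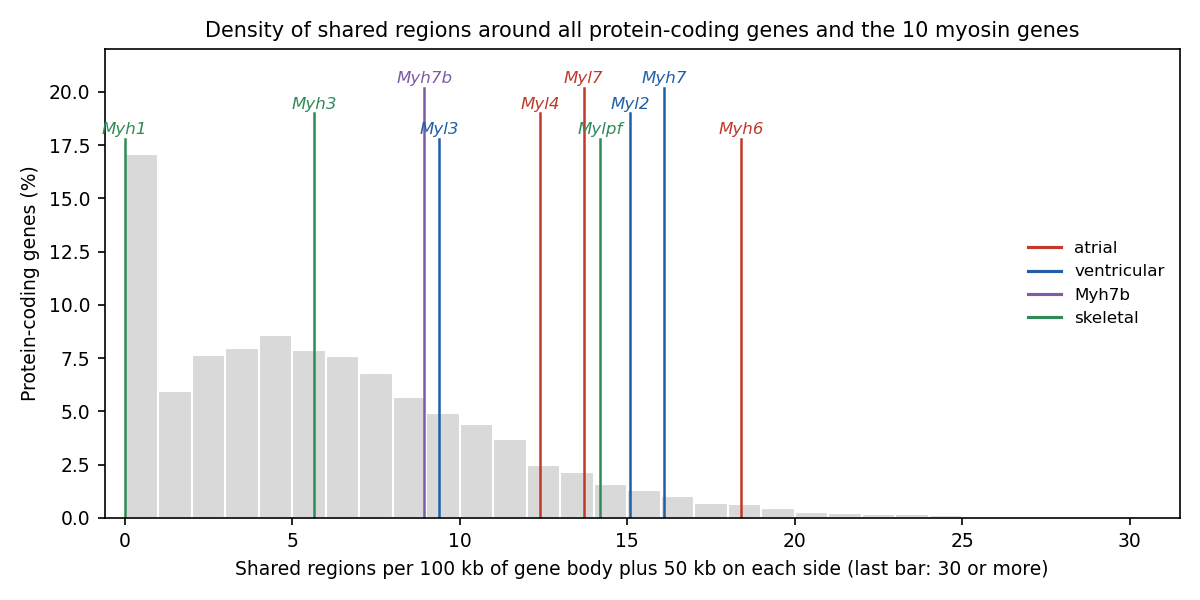
Percentage of all protein-coding genes (vertical axis) by the number of shared regions per 100 kb in the gene body plus 50 kb on each side (horizontal axis), with the 10 myosin genes as labelled lines. The 6 genes with the highest densities lie between 12.4 and 18.4 and include the skeletal gene Mylpf; Myh1 lies at 0.

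Of the 117 regions, 19 lay at a start of a myosin gene, 30 at starts of other protein-coding genes only and 68 at no protein-coding start. Of these 68, 45 overlapped an annotated gene, 17 of them an exon, and 23 lay between genes. Over all shared regions, counted by distinct replicate 1 summit, 75521 of 95480 lay at no protein-coding start, a larger share than in these windows. Many of the highest regions lay at promoters of neighbouring genes, such as *Pabpn1* near *Myh6* (48.9 and 46.3), which encodes a nuclear poly(A)-binding protein, *Ngdn* near *Myh7* (43.7 and 42), *Pold2* near *Myl7* (38.6 and 38.2; DNA polymerase delta) and *Ppp1cc* near *Myl2* (20.1 and 19.9; protein phosphatase 1). *Gss* near *Myh7b* (22 and 22.1; glutathione synthetase), *Adprm* and *Sco1* near *Myh3* (29.9 and 32.7) and *Itgb3* near *Myl4* (15.5 and 13.8; integrin beta 3) were of the same kind. So were *Efs* near *Myh6* and *Myh7* (21.7 and 18.9) and, near *Mylpf*, *Dctpp1* (40.7 and 38.2; a dCTP pyrophosphatase) and *Zfp771* (30.2 and 30.9; a zinc finger protein). Counts of regions in a window therefore mix the myosin gene's surroundings with its neighbours' promoters.

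**Figure D3:**
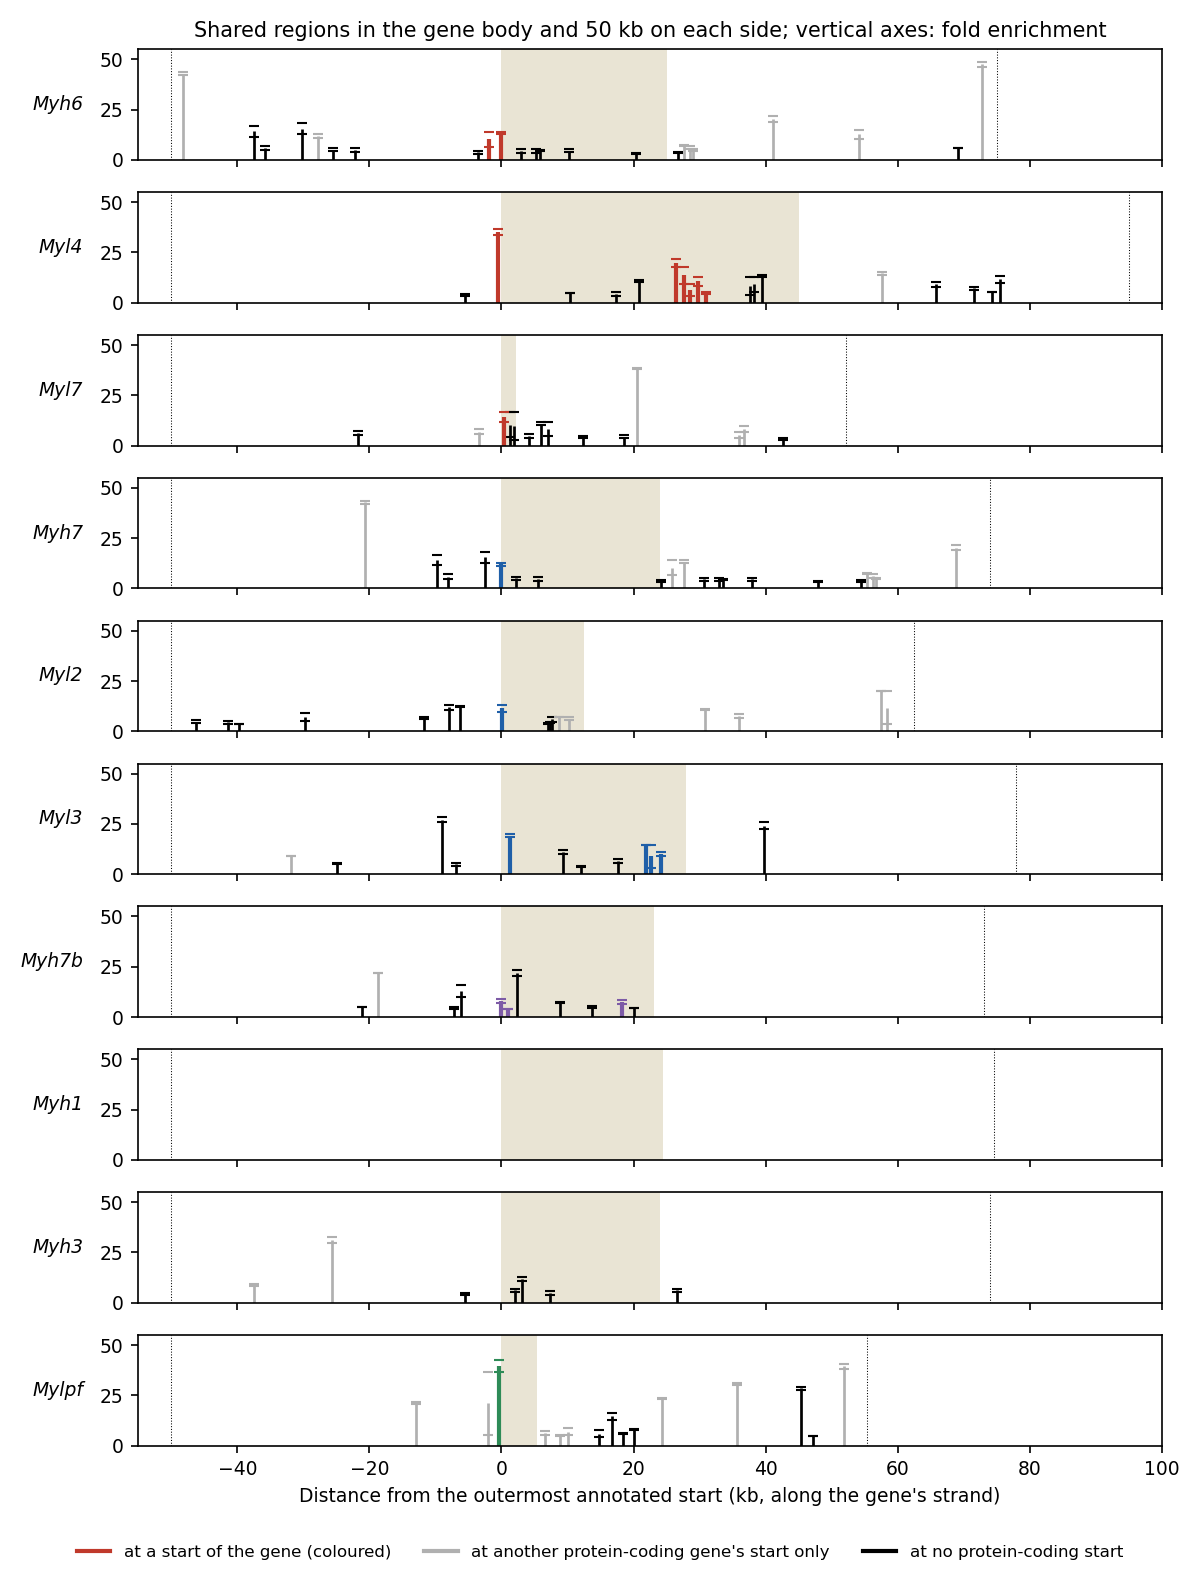
Shared regions of each gene by distance in kb from its outermost start along its own strand (horizontal axes), with fold enrichment on the vertical axes: the line ends at the mean and the ticks are the 2 replicates. Shading marks the gene body, dotted lines the ends of the window, colour a start of the gene, grey the start of another protein-coding gene only and black no protein-coding start; the window of Myh1 is empty, and Mylpf, Myl3 and Myh7b have black lines above 20.

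Away from starts, the highest region of all 10 windows lay in that of a skeletal gene. It lay 45.4 kb from the outermost start of *Mylpf*, over an exon of the neighbouring gene *Zfp771* (chr7:127253579-127254914), at 29.1 in replicate 1 (23.8 to 35.1) and 27.7 in replicate 2 (22.8 to 33.3), above 99.5% of all shared regions at no protein-coding start. In the windows of the cardiac genes the highest was 9.06 kb upstream of the outermost start of *Myl3*, inside the neighbouring gene *Pth1r* (chr9:110732239-110733362), at 28.2 in replicate 1 (23.1 to 34.2) and 26.1 in replicate 2 (21.4 to 31.7). It was above 99.3% of regions at no start, and its intervals overlapped those of the region near *Mylpf* in both replicates. A second region 39.8 kb downstream of the outermost start of *Myl3*, between genes (chr9:110781082-110782201), stood at 22.3 and 25.9, above 98.8%. By value both regions near *Myl3* exceeded each of its start regions, with intervals that overlapped those of the region shared with *Pth1r*.

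*Myh7b* likewise had its highest region away from its start, 2.37 kb inside the gene over an exon (chr2:155612725-155614443), at 20.6 in replicate 1 (16.3 to 25.8) and 23.6 in replicate 2 (19.1 to 28.9). This was above its start region in both replicates with intervals apart. A region 6.16 kb upstream (chr2:155604732-155605371) stood at 10.1 and 15.8, a ratio below 0.697, the lower end of the central 95% of ratios between the replicates.

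Upstream of *Myh7* a cluster of 3 regions lay at 2.48, 8.11 and 9.83 kb, all between genes. The nearest (chr14:54996750-54997454) stood at 18.2 in replicate 1 (14.1 to 23.1) and 12.8 in replicate 2 (9.58 to 16.8), above 94.4% of regions at no start. The farthest (chr14:55003842-55005063) stood at 16.8 and 11.6, and the middle region at 7.06 and 4.78. Replicate 1 was the higher in all 3, as at 81 of the 117 regions. Within the bodies of *Myh7* and *Myh6* and between them, no region at no start exceeded 5.70 in either replicate.

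**Figure D4:**
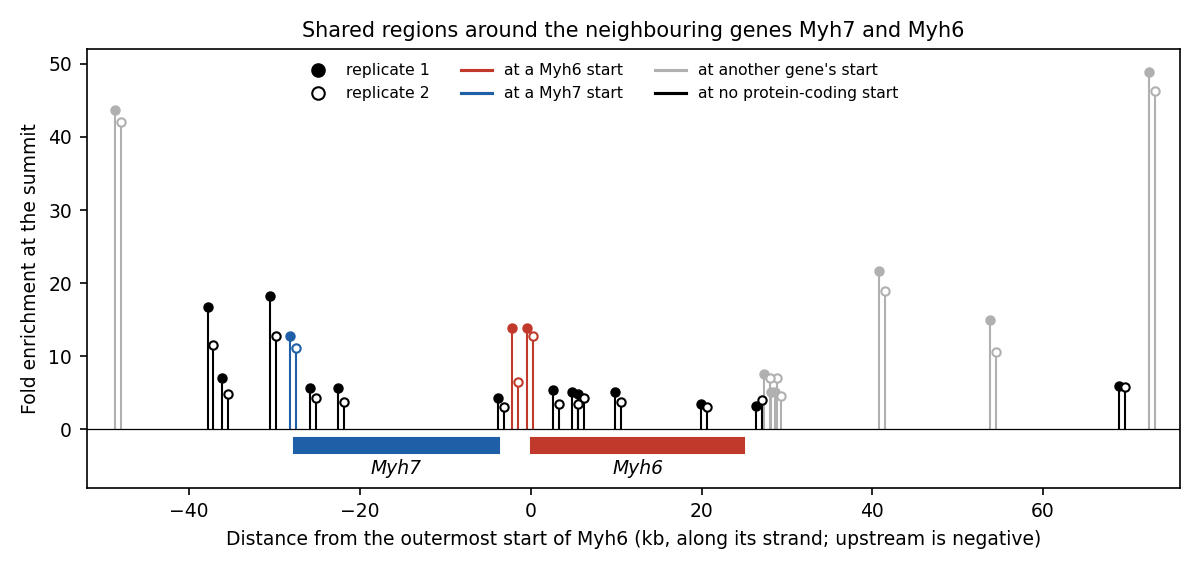
Fold enrichment at the summit (vertical axis) of each shared region in the window of Myh6 by distance in kb from the outermost start of Myh6 along its strand (horizontal axis), with filled circles for replicate 1 and open circles for replicate 2. Bars below the line are the bodies of Myh7 and Myh6; the 2 highest black regions stand upstream of Myh7, at 18.2 and 12.8 and at 16.8 and 11.6, and those within the bodies stay at or below 5.70.

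The nearest 2 of the 7 regions upstream of *Myl2*, at 6.33 kb (chr5:122094345-122094888; 12.5 and 12.1) and at 8.02 kb (chr5:122092546-122093318; 13.3 and 10.6), reached the level of its own start, while the other 5 had means of 3.65 to 7.13. For *Myl4* a region 39.5 kb from the outermost start, inside the gene (chr11:104589845-104590571), stood at 12.8 and 13.8, and a further intragenic region at 20.9 kb stood at 10.1 and 11.3. In the latter 71.8% of 32-base stretches occur once in the genome. Downstream of *Myl7*, 6.05 kb from the start, a region (chr11:5892124-5893337) stood at 11.7 and 10.1. For *Myh7*, *Myl2*, *Myl3* and *Myl7* the interval of the highest region at no start overlapped that of the gene's own start region or lay above it in both replicates. For *Myl4* it lay below it in replicate 1.

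Inside gene bodies, 8 of the 10 genes had a region at no protein-coding start, beside 40.9% of all protein-coding genes. The exceptions were *Myh1* and *Mylpf*. The 2 such regions of *Myl7* were cut from the replicate 1 peak over its start, and the 3 of *Myl2* overlapped the neighbouring gene *Ccdc63*. With a reciprocal overlap of 50%, neither gene kept one. *Myh6* had 5 such regions, between 3.01 and 20.3 kb from its start, with values of 3.53 to 5.43 in replicate 1 and 3.02 to 4.27 in replicate 2, below the medians of all peaks, 5.704 and 5.028. With only peaks at a q-value of 1e-10 or below in both lists, 4 of the 10 genes kept a region inside the body, and *Myh6*, *Myh7*, *Myl2* and *Myl7* were not among them. The 40.9% of all genes applies to the full lists and not to this limit.

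*Myh3* differed from *Myh1* in having shared regions inside the gene. At 3.09 kb from the start, a region (chr11:67081146-67081633) stood at 12.8 in replicate 1 (9.42 to 16.9) and 10.8 in replicate 2 (7.86 to 14.5), within the range of the cardiac start regions and above 88.7% of regions at no start. A second region at 2.12 kb stood at 7.06 and 5.53, and another at 7.36 kb at 5.70 and 3.77. The embryonic heavy chain gene thus had no shared region at its annotated start and 3 inside its body.

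Around *Myh1* no peak was called in either replicate in a window of 124.5 kb, of which 92.5% of 32-base stretches occur once in the genome. Of all protein-coding genes, 12.1% had no shared region in their window. The stretch between the nearest shared regions ran for 245.3 kb (chr11:67105096-67350441) and held *Myh1* together with the fast and developmental skeletal heavy chain genes *Myh2*, *Myh4* and *Myh8*. Within it, 2 peaks of replicate 1 and 4 of replicate 2 were not matched in the other list. The last of the 7 regions of *Myh3*, 26.6 kb from its start, forms the border of this stretch.

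Summits of the most informative regions outside starts are given as 200 bases centred on the replicate 1 summit, on the strand of the gene, with the same letters in capitals. The region upstream of *Myh7* is shown as the highest at no start around *Myh6* and *Myh7*, that upstream of *Myl3* as the highest around the cardiac genes, and that inside *Myh3* as the highest in the body of a skeletal gene.
Myh7 at 2.48 kb upstream, chr14:54996883-54997082, minus strand: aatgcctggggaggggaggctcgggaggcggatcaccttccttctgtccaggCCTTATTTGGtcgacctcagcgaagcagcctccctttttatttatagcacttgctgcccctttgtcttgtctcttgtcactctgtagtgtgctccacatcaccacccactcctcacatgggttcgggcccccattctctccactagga
Myl3 at 9.06 kb upstream, chr9:110732699-110732898, plus strand: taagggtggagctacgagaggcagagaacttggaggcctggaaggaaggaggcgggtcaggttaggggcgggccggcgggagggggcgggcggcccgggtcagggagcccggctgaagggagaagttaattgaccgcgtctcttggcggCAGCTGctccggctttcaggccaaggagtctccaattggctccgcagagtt
Myh3 at 3.09 kb inside, chr11:67081337-67081536, plus strand: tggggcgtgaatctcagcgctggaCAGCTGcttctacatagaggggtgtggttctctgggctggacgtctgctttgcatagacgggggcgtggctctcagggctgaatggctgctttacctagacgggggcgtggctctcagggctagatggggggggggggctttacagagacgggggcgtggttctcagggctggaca

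The summit upstream of *Myh7* held a CArG box, found at 1.3% of the 75521 summits at no protein-coding start. The summits upstream of *Myl3* and inside *Myh3* each held an E-box, found at 18.8%. The summits of the highest such regions of *Myh7b* and *Mylpf* held none of the 7 motifs. Over the windows of the 7 cardiac genes, 50 distinct summits lay at no start. CArG boxes were found at 3 of them (6.0%), GATA letters at 16.0% beside 20.1% of all such summits, TEAD letters at 18% beside 16.3%, E-boxes at 24% beside 18.8% and NKX2-5 letters at 8.0% beside 13%. MEF2 letters were found at 4.0% beside 4.86%, or at 2.0% beside 1.94% with a centre of A and T, and TBX5 letters at 6.0% beside 8.94%. Of 11 such summits in the windows of the skeletal genes, 2 held MEF2 letters (1 with a centre of A and T), 2 an E-box, 1 GATA letters and 1 TBX5 letters, and none held TEAD or NKX2-5 letters or a CArG box.

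At the 17 distinct summits at starts of the myosin genes, TEAD letters were found at 6 (35.3%), beside 8.74% of 19959 summits at protein-coding starts. A CArG box was found at 2 (11.8%, beside 0.892%), TBX5 letters at 11.8% (beside 7.01%), E-boxes at 23.5% (beside 14.0%), GATA letters at 5.88% (beside 6.47%), NKX2-5 letters at 5.88% (beside 6.18%) and MEF2 letters at none (beside 2.19%). These counts are small, the summits of a gene lie near each other, and no test was made. No share over CpG-poor starts alone was computed. The median GC content was 55% at these summits, beside 62.5% at all start summits.

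**Figure D5:**
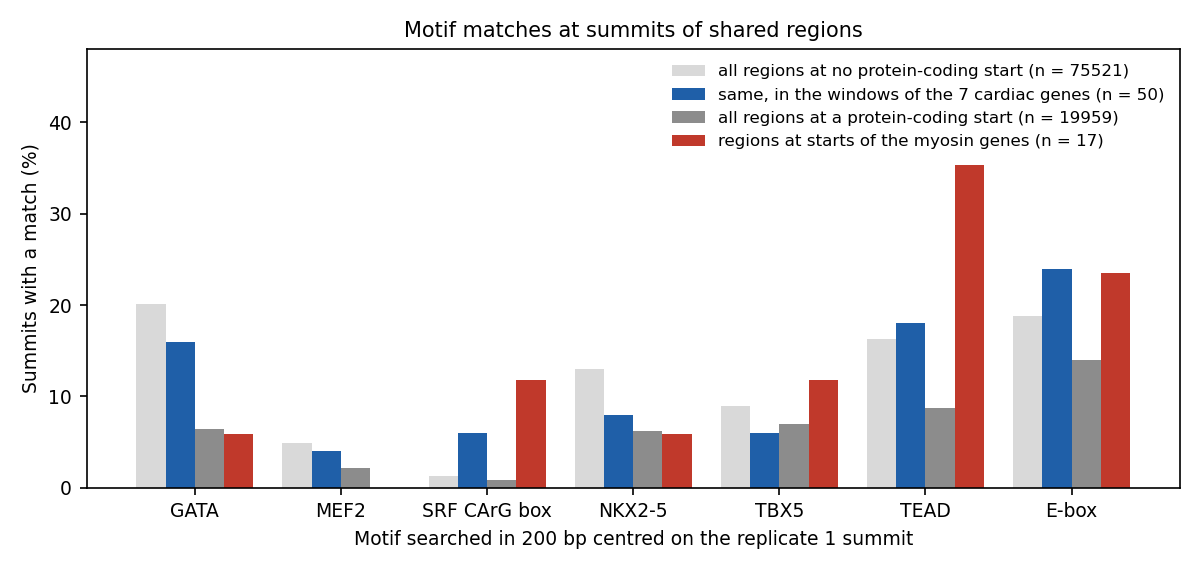
Percentage of summits with a match to each motif in 200 bases centred on the replicate 1 summit (vertical axis), by motif (horizontal axis), for 4 sets of summits named with their n. At starts, TEAD letters and the CArG box were found at 35.3% and 11.8% of the myosin summits, beside 8.74% and 0.892% of all start summits.

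The bodies of 4 of the genes hold microRNA genes, the muscle microRNAs *Mir208a* in *Myh6*, *Mir208b* in *Myh7* and *Mir499* in *Myh7b*, and *Mir6923* in *Myh3*. None lay in a shared region. *Mir499* lay 1828 bp and *Mir208a* 2325 bp from the nearest, *Mir6923* lay 4915 bp and *Mir208b* 5113 bp.

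Further lists of genes were set beside the 67.6% of all protein-coding genes with a shared region at a start. Of 5 other chains of striated muscle, only *Myl1*, an essential light chain of fast skeletal muscle, had a shared region at a start (14.1 and 10.3), while *Myh2*, *Myh4*, *Myh8* and *Myh13* had none. All 5 have CpG-poor starts alone, and 25.8% of all genes of this kind had such a region. All 9 smooth muscle and nonmuscle chains had one, from 12.9 on average for the smooth muscle heavy chain *Myh11* to 46.8 for the nonmuscle heavy chain *Myh9*. Of these 9, only *Myh11*, *Myh14* and *Myl9* have CpG-poor starts alone. Of 10 genes for partners of the thick filament, 6 had one, a share near that of all genes. Among them, *Mybpc3*, the cardiac myosin-binding protein C, stood at 13.9 and 11.6, *Mylk3*, the cardiac myosin light chain kinase, at 33.1 and 31.2, and the myosin chaperone *Unc45b* at 21.7 and 15.6. *Smyd1* (18.2 and 20.1), *Mybphl* (16.0 and 14.1) and *Mybpc2* (7.33 and 3.77) were the others. *Mybpc1*, the slow skeletal myosin-binding protein C, *Mylk2*, the skeletal light chain kinase, *Mybph* and *Mylk4* had none at a start.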

How the data were processed

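ATAC-seq peaks of 2 replicates of whole wildtype FVB hearts at E11.5 were analysed. Per the labels and the study's methods, the authors trimmed 50 bp single-end reads with Trim Galore 0.6.6, mapped them to GRCm38/mm10 with Bowtie2 2.4.2, removed duplicates and reads with a mapping quality under 10 with SAMtools 1.12, and called peaks in each replicate with MACS2 without a local background. The deposited peak lists give a fold enrichment, which is a ratio to the genome-wide background, the authors' −log10 p and −log10 q values at the summit, and a score that is the scaled −log10 q value. Removal of reads of low mapping quality lowers signal in repeated sequence. The largest p at a listed summit was 0.000476 in replicate 1 and 0.00104 in replicate 2, stricter than the limit stated in the study's methods, so sites between these limits are not in the lists used here.

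Shared regions are the parts of replicate 1 peaks covered by a replicate 2 peak (bedtools 2.31.1, intersect, at least 1 bp), merged where they touch. Each carries the highest fold enrichment of the peaks below it in each replicate, so regions cut from a single long peak repeat its value. Gene models were those of GENCODE M21, and promoter, window and CpG rules were applied to every protein-coding gene on chromosomes 1 to 19, X and Y. Background reads follow from the step size of the fold enrichment: all values came out as whole reads within 0.02 reads. The Poisson tail of these reads gave the deposited −log10 p to within 0.000509. This was compared at 117576 peaks of replicate 1 and 114210 of replicate 2. Read totals are not in the lists, so depth is known through this background only. Intervals are exact 95% Poisson intervals of the summit reads and cover counting error only. Repeated sequence was measured by 32-base stretches that occur once in the genome.

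The genes, classes, lists and markers were chosen with earlier results of these data known. Named are the 10 genes, the listed myosin and thick filament genes, genes with a start region inside a window, microRNA genes inside the bodies and the 3 highest regions of each window. Other regions of the windows and the single skeletal muscle markers were named after their values were seen. All comparisons are descriptions beside the same measure over all genes, without a test. Alternatives were limits on p and q, a reciprocal overlap of 50%, each replicate left out, start windows of 500 bp and 2 kb, starts of protein-coding transcripts, summits inside the window, and flanks of 25 kb and 100 kb. Leaving out regions at starts of other genes when counting genes with a start region, and the MEF2 search with a centre of A and T, were added after seeing the data. The overlap and window code was tested on simulated data. Scripts ran in Python 3.11.15 with pandas 2.3.3, NumPy 2.4.6, Numba 0.67.0 and SciPy 1.17.1. Figures were made with Matplotlib 3.10.9.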

Additional observations from a re-analysis of the deposited data

How the results depend on the processing

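The count of genes with a shared region at a start was 8 under every alternative tried except a start window of 2 kb, where *Myh3* also had one and the count was 9; for starts of that gene only it was 7, and 8 with the 2 kb window. Leaving out each replicate in turn gave 8 and 7 again, 134 to 138 regions in the windows in place of 117, and 7 to 8 genes with a region inside the body, with *Myl7* lost without replicate 2. With a q-value limit of 1e-10 the windows held 58 regions, 4 genes had one inside the body in place of 8, and the medians per window were 10 for the atrial, 8 for the ventricular and 3 for the skeletal genes, in place of 18, 17 and 7. A reciprocal overlap of 50% gave an atrial median of 11 and 6 genes with a region inside the body. The ventricular median was 11 with flanks of 25 kb and also 11 without regions at starts of other genes, and the skeletal median was 14 with flanks of 100 kb, where the window of *Myh1* held 1 region. With a start window of 2 kb the highest mean fold enrichment at the starts of *Myh7b* was 22.1 in place of 7.88, since the region inside the gene then counted. Of the other values, 46 counts stayed within 1.5 times and 31 fold enrichments within the spread between replicates. No paired analysis was possible because only 1 group was sampled. The lowest listed summits have 9 reads, so weaker sites are not in the lists used here.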

Other observations

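In the window of *Myh6*, 14 peaks of replicate 1 had no counterpart in replicate 2, the highest at 5.43, against 2 peaks of replicate 2, the highest at 3.52. In the window of *Myl3* the balance was the other way, with 1 peak in replicate 1 only and 7 in replicate 2 only, the highest at 5.53. The medians over all peaks were 5.704 in replicate 1 and 5.028 in replicate 2, so the highest such peak of replicate 2 lay above its library's median and that of replicate 1 below it.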
